A study of Mus musculus with 9 samples.

Results

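Lactate dehydrogenases, the membrane transporters that carry lactate and the chaperones of those transporters were described here in 6 genes: Ldha, Ldhb, Slc16a1, Slc16a3, Bsg and Emb. A gene was taken in when the platform annotation gave its symbol to a probe set, and each of the 6 had 1 probe set, among 22206 probe sets and 19505 gene symbols on the array. E0771 cells, which derive from a mouse mammary tumour, carried shPC25 (3 arrays), shPC28 (3 arrays) or a scramble hairpin, scram (3 arrays). Both shPC hairpins are directed against pyruvate carboxylase, the product of Pcx, and were delivered in the lentiviral vector pLKO.1 with selection in puromycin. All 3 groups were cultured in DMEM that held 10% FBS, 4 mM glutamine and 5.6 mM glucose, without further treatment. The study used 1 tumour line, and nothing in the labels ties the arrays of a group to separate cultures, so the p-values below measure the spread between these arrays, which may be technical. In bulk RNA, fewer expressing cells and less RNA per cell cannot be told apart.

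Lactate dehydrogenase converts pyruvate and NADH to lactate and NAD+, and the reverse, as a tetramer of A subunits (Ldha) and B subunits (Ldhb). Lactate crosses the plasma membrane together with a proton through monocarboxylate transporters, of which MCT1 (Slc16a1) works in import and export and MCT4 (Slc16a3) is known for export from glycolytic cells. MCT1 and MCT4 need basigin (Bsg), a single-pass glycoprotein, to reach the membrane, and embigin (Emb) is a related chaperone best known as the partner of MCT2. Pyruvate carboxylase uses the same pyruvate, and the comparison asks how the transcripts of the lactate step stood once Pcx was lowered.

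Values are log2 array signals, with base 2 read off the range of the values as no source names it, and fold changes are 2 to the power of a log2 difference. A probe set counted as above background on an array when it exceeded the 95th percentile of 1091 olfactory receptor probe sets there, which lay between 4.03 and 4.46. Arrays of 1 group correlated at 0.995 to 0.998 over the probe sets, a description only since probe sets share their RNA. Pcx read 5.64, 5.43 and 5.53 on the shPC25 arrays, 7.01, 6.85 and 6.57 on the shPC28 arrays, and 9.18, 8.84 and 9.20 on the scram arrays. The target was thus lowest with shPC25 and intermediate with shPC28, with no overlap between groups, and its log2 change was -3.54 ± 0.15 with shPC25 and -2.26 ± 0.15 with shPC28 (SE; limma, adjusted p = 1.28e-05 and 4.13e-06). Of 8 epithelial markers 1 was higher and 1 lower with shPC25, and 2 were higher and 2 lower with shPC28. For comparison with the marker counts, 20.4% of all probe sets were called with shPC25 and 41.7% with shPC28. The mean level of the epithelial markers lay at 5.21 to 5.32 on the shPC25 arrays, 5.27 to 5.57 on the shPC28 arrays and 5.27 to 5.40 on the scram arrays. The higher ones were the keratin Krt8, at means of 14.12 with shPC25, 14.46 with shPC28 and 13.74 in scram, and, with shPC28, Cdh1 (0.61, limma, adjusted p = 0.041, lost under 10 of 18 alternatives). The lower ones were Krt14, which fell below background with both hairpins (-0.96, adjusted p = 0.0333 with shPC25 and -1.24, adjusted p = 0.00464 with shPC28), and, with shPC28, Epcam (-0.74, adjusted p = 0.0463), named after its values were seen. The Krt14 call with shPC25 was lost under 6 of 17 alternatives. The macrophage markers Ptprc, Adgre1, Csf1r and Itgam were above background on 0 arrays, and Lyz2, the remaining one of 5 measured, averaged 9.36 with shPC25, 10.58 with shPC28 and 9.79 in scram. Lyz2 was called lower with shPC25 (-0.42, limma, adjusted p = 0.0143, lost under 3 of 18 alternatives) and higher with shPC28 (0.80, adjusted p = 0.000145). Among 5 mesenchymal markers 0 were higher and 1 lower with shPC25, and 1 was higher and 2 lower with shPC28. Their median log2 change was 0.09 and 0.17. The lower ones were Zeb1, which changed by -0.39 with shPC25 (limma, adjusted p = 0.0257) and -0.99 with shPC28 (adjusted p = 5.21e-05), and Twist1, by -0.67 with shPC28 (adjusted p = 0.00263). Vim, the brightest of the 5, changed by 0.10 and 0.17 and was not called. Col1a1, the only 1 of 5 fibroblast markers above background on all arrays, changed by -0.96 with shPC25 (adjusted p = 0.00283) and -0.63 with shPC28 (adjusted p = 0.00866). The other calls among these lists were Fn1 and Lum with shPC28 and the endothelial Cdh5 with both, which were at background on every hairpin array, and 0 of 5 lymphocyte markers passed, with 1 higher at an unadjusted p under 0.05 with each hairpin. Of the lymphocyte markers only Cd4 was above background on all arrays, at means of 6.87 with shPC25, 6.98 with shPC28 and 6.80 in scram. Of 5 endothelial markers 0 were above it on all arrays, with Pecam1 above it on 2 shPC25, 3 shPC28 and 3 scram arrays. The part of these marker differences in the results below was not tested.

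Slc16a3 fell with both hairpins, and fell further with shPC28, the hairpin that left more Pcx transcript. Emb fell with both to the level of background. Slc16a1 fell with shPC28, whereas Ldha, Ldhb and Bsg passed the test in none of the 3 comparisons between groups. With shPC25 the test called 2 of the 6 genes lower and 0 higher, where 20.4% of all probe sets were called, 11.3% lower and 9.19% higher. With shPC28 it called 3 of the 6 lower and 0 higher, where 41.7% of all probe sets were called, 20.5% lower and 21.2% higher, so the total of 3 lies near that background. Between the hairpins it called 2 of the 6 lower with shPC28 and 0 higher, where 26.2% of all probe sets were called, 14.5% lower and 11.8% higher. At an unadjusted p under 0.05 the count of higher genes was also 0 in each comparison, and limma with an intensity trend and robust variance called Ldha higher with both. The median log2 change of the 6 genes was -0.30 with shPC25 and -0.51 with shPC28, against 0.04 and 0.10 over all probe sets, with Ldhb and Emb at their fitted values. Both comparisons use the same scram arrays.

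**Figure D1:**
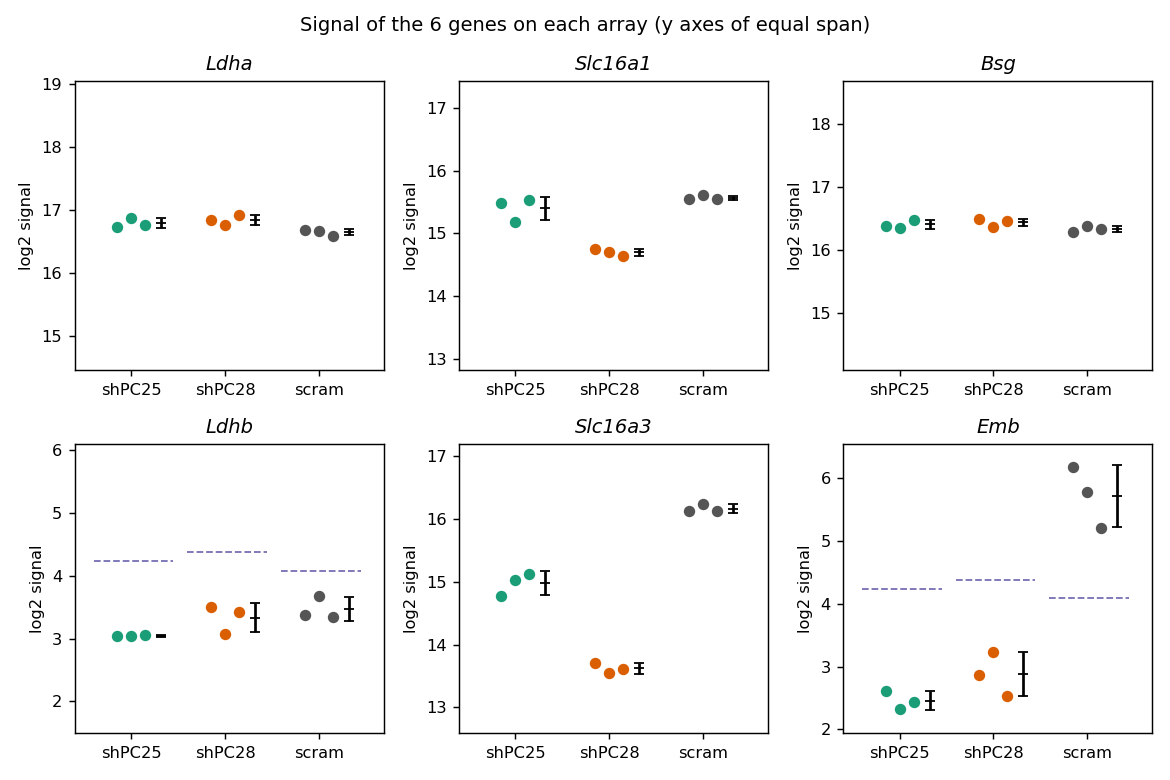
Log2 signal (vertical axis) of each of the 6 genes on each array (points), grouped as shPC25, shPC28 and scram, with the mean ± SD as a black bar. In the panels of Ldhb and Emb only, a dashed line marks the group's mean 95th percentile of olfactory receptor probe sets. Slc16a3 stands in 3 separate steps, Emb lies above the dashed line only in scram, and Ldhb lies below it on all 9 arrays.

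The enzymes come first. Ldha, which encodes the A subunit that favours lactate formation, was among the brightest probe sets of the array, with 99.5% of probe sets dimmer. It read 16.73, 16.88 and 16.76 on the shPC25 arrays, 16.85, 16.77 and 16.92 on the shPC28 arrays, and 16.69, 16.67 and 16.59 on the scram arrays. Every hairpin array lay above every scram array, a separation in either direction that 38.9% of all probe sets showed with shPC25 and 51.1% with shPC28. The difference was small, at 0.14 ± 0.09 with shPC25 (SE; limma, adjusted p = 0.337) and 0.20 ± 0.09 with shPC28 (adjusted p = 0.12), neither past the threshold of 0.05. The 95% interval for shPC28 over scram ran from 0.992-fold to 1.32-fold. Centring the arrays on their medians raised the shPC28 difference to 0.30 (adjusted p = 0.0336), and centring on olfactory receptor probe sets brought it to -0.00, so with shPC28 the direction rests on the scaling. With shPC25 the difference ranged from 0.07 to 0.24 over 18 alternatives, of which 1 passed the test.

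Ldhb, which encodes the B subunit that favours pyruvate formation, was not above background on any array. It read 3.04, 3.04 and 3.05 on the shPC25 arrays, 3.50, 3.07 and 3.42 on the shPC28 arrays, and 3.37, 3.68 and 3.35 on the scram arrays. The shPC25 arrays lay below all scram arrays and the shPC28 arrays overlapped them, but values at background carry no order. The fitted differences were -0.42 ± 0.14 with shPC25 (SE; limma, adjusted p = 0.0625) and -0.14 with shPC28 (adjusted p = 0.468), and no fold is given where both groups are below background.

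The promoter of Ldha is shown beside those of the 2 transporters and Emb because the first 3 hold the short motif ACGTG and the Emb promoter does not. Sequences are RefSeq's, build GRCm38.p6, and hold the 250 bases before an annotated start, 5′ to 3′ on the gene's strand. Capitals mark ACGTG on either strand, the core bound by hypoxia-inducible factors; CACGTG, the E-box bound by MYC and MAX, holds it on both strands.
Ldha, first start, chr7:46845554-46845803, plus strand: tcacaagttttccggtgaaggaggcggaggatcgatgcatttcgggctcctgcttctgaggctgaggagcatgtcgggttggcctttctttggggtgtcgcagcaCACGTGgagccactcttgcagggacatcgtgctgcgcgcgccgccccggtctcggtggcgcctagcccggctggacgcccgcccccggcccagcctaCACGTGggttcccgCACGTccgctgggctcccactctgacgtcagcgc
Slc16a1, chr3:104638414-104638663, plus strand: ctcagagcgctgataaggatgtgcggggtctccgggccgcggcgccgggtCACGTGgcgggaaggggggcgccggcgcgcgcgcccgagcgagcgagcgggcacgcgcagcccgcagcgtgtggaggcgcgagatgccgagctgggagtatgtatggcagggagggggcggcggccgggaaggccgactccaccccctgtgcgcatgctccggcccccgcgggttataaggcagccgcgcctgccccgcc
Slc16a3, chr11:120948817-120949066, plus strand: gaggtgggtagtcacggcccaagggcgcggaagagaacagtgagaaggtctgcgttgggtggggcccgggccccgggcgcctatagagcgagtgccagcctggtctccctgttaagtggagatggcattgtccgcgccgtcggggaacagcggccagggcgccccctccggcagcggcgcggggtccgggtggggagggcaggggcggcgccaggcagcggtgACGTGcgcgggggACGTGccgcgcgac
Emb, chr13:117220323-117220572, plus strand: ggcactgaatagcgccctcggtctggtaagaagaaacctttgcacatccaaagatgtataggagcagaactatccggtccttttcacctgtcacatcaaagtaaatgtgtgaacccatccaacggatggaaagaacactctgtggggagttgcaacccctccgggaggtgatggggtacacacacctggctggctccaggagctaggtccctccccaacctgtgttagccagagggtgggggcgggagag
Counting both strands, ACGTG occurred 5 times before the first Ldha start, its 2 CACGTG sites giving 4 of them. It occurred 2 times before Slc16a1, as 1 CACGTG, and 2 times before Slc16a3, starting 27 and 14 bases before the annotated start, with 0 occurrences before Emb, Ldhb and the second Ldha start. Bsg had no entry among the promoters used and was not searched. Among 32851 mouse promoters of the same length, 16.6% held ACGTG at least 1 time, 6.02% held CACGTG and 1.22% held 3 or more ACGTG. A GC box, GGGCGG on either strand, occurred 2 times before the first Ldha start and 1 time each before Slc16a1, Slc16a3 and Emb, and 32.7% of promoters held it. These matches describe letters, and no binding was measured here.

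Of the transporters, Slc16a3 changed most. It encodes MCT4, and its signal was 14.77, 15.03 and 15.13 on the shPC25 arrays, 13.70, 13.55 and 13.61 on the shPC28 arrays, and 16.12, 16.24 and 16.13 on the scram arrays. The 3 groups did not overlap, and all values were far above background. The log2 change was -1.19 ± 0.11 with shPC25 (SE; limma, adjusted p = 0.000276), 2.28-fold lower, and -2.54 ± 0.11 with shPC28 (adjusted p = 8.18e-07), 5.83-fold lower with a 95% interval of 4.88-fold to 6.97-fold. Only 2.34% of all probe sets had a lower change with shPC25 and 1.5% with shPC28. Between the hairpins, the level with shPC28 was lower than with shPC25 by a further log2 change of -1.36 ± 0.11 (adjusted p = 6.20e-05), or 2.56-fold. A stepwise fall of this form, lower with shPC25 than in scram and lower again with shPC28, passed the test in all 3 comparisons for 5.83% of probe sets, and Slc16a3 was the only one of the 6 genes to show it.

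Slc16a1, which encodes MCT1, read 15.48, 15.19 and 15.53 on the shPC25 arrays, 14.75, 14.70 and 14.64 on the shPC28 arrays, and 15.55, 15.61 and 15.55 on the scram arrays. The shPC28 arrays stood below all others, and the shPC25 arrays lay just under scram with 1 array, replicate 2, clearly lower than its fellows. With shPC28 the log2 change was -0.87 ± 0.11 (SE; limma, adjusted p = 0.000184), 1.83-fold lower. With shPC25 it was -0.17 ± 0.11 (adjusted p = 0.327; 95% interval -0.42 to 0.08), and -0.07 without replicate 2 (adjusted p = 0.718). The difference between the hairpins was itself past the test, with shPC28 below shPC25 by a log2 change of -0.70 ± 0.11 (adjusted p = 0.00152).

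**Figure D2:**
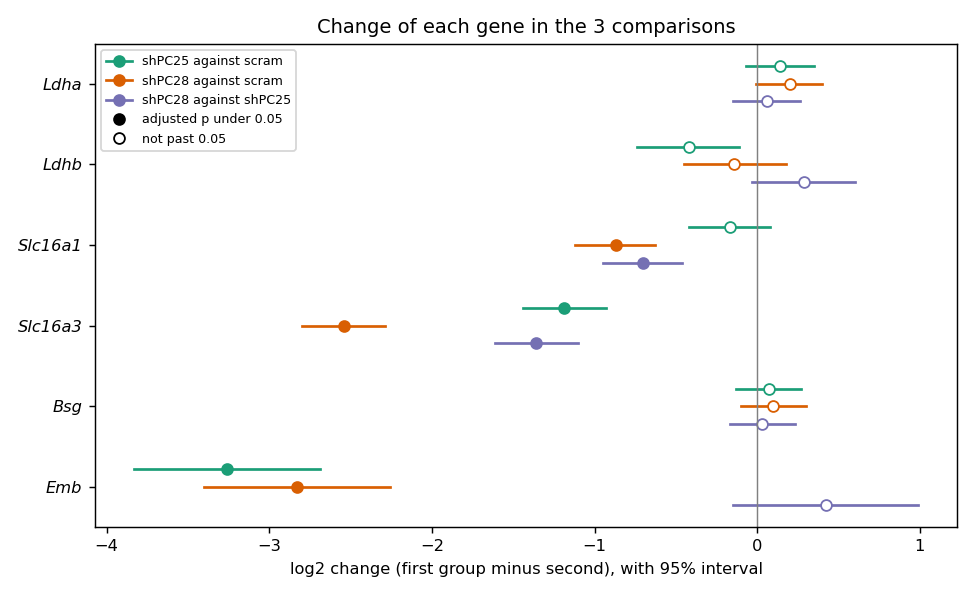
Log2 change of each gene (horizontal axis, first group minus second) in shPC25 against scram, shPC28 against scram and shPC28 against shPC25, with 95% intervals from limma and filled points where the adjusted p was under 0.05. Slc16a3 is filled in all 3 comparisons, Slc16a1 in both that involve shPC28 and Emb in both against scram.

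The chaperones differed from each other. Bsg, the partner of MCT1 and MCT4, read 16.39, 16.35 and 16.48 on the shPC25 arrays, 16.49, 16.37 and 16.46 on the shPC28 arrays, and 16.29, 16.39 and 16.34 on the scram arrays. The groups overlapped throughout. Its log2 change was 0.07 ± 0.09 with shPC25 (SE; limma, adjusted p = 0.657) and 0.10 ± 0.09 with shPC28 (adjusted p = 0.403). The 95% intervals ran from 0.911-fold to 1.2-fold with shPC25 and from 0.933-fold to 1.23-fold with shPC28, and the sign turned with quantile normalization and with centring on olfactory receptor probe sets.

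Emb read 2.61, 2.32 and 2.44 on the shPC25 arrays, 2.87, 3.23 and 2.54 on the shPC28 arrays, and 6.17, 5.77 and 5.20 on the scram arrays. It was above background on all 3 scram arrays and on 0 hairpin arrays. The fitted log2 change was -3.26 ± 0.25 with shPC25 (SE; limma, adjusted p = 0.000127) and -2.83 ± 0.25 with shPC28 (adjusted p = 2.41e-05). Set against the background level of the hairpin arrays, Emb was at least 2.8-fold lower with shPC25 and at least 2.52-fold lower with shPC28. Below background the 2 hairpins have no order, and their fitted difference of 0.42 ± 0.25 did not pass the test (adjusted p = 0.261). At least 2-fold lower and past the test were 3.61% of probe sets with shPC25 and 11.2% with shPC28, and of the 6 genes these were Slc16a3 and Emb.

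Leaving out Ldhb, which is at background, the groups did not overlap for 4 genes with shPC25, 3 of them lower (38.9% and 18.8% of all probe sets), and for 4 with shPC28, 3 of them lower (51.1% and 23.6%). Between shPC28 and shPC25 they did not overlap for 2, both lower (39.5% and 19.5%), and of the 6 genes only Slc16a3 passed the test at 2-fold lower or more (5.69%).

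The signals of both transporters moved unequally. Slc16a1 fell less than Slc16a3: with both hairpins together, its log2 change against scram was less negative by 1.34. In the difference Slc16a1 minus Slc16a3, all 6 hairpin arrays lay above all 3 scram arrays (two-sided exact permutation test, p = 0.0238, also after adjustment over the 3 pairs of related genes computed). This is the smallest p the design can give, and the test pools the 2 hairpins. Taken singly, the difference against scram was 1.02 with shPC25 and 1.67 with shPC28. The other pairs, Ldha with Ldhb and Bsg with Emb, each hold a probe set at background, so no size or order is read from their differences.

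The pathway around these genes was described by gene lists drawn up by function. Their counts of called genes are to be read beside all probe sets, of which 20.4% were called with shPC25 (11.3% lower, 9.19% higher). With shPC28 41.7% were called (20.5% lower, 21.2% higher). Of 4 other lactate dehydrogenase family genes, 3 were above background on no array, and Uevld, a gene with a lactate dehydrogenase-like domain, changed by -0.34 with shPC25 (limma, adjusted p = 0.138) and -0.54 with shPC28 (adjusted p = 0.0142). Without scram replicate 2, Uevld no longer passed (adjusted p = 0.0556). Of 13 other monocarboxylate transporters, 10 were above background on no array. Slc16a6 was the only one above background on all arrays, at means of 11.12 with shPC25, 10.26 with shPC28 and 11.35 in scram. It repeated the pattern of Slc16a1, with log2 changes of -0.24 with shPC25 (adjusted p = 0.205) and -1.09 with shPC28 (adjusted p = 7.86e-05), and -0.85 between shPC28 and shPC25 (adjusted p = 0.000822). With shPC25, 0 of these 13 passed the adjusted test and 2 were higher at an unadjusted p under 0.05. With shPC28, 1 was lower, Slc16a6, and 1 higher, Slc16a4 (0.75, limma, adjusted p = 0.00541), which was above background on no array.

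Among 8 relatives, ligands and surface partners of basigin, all above background, 2 were higher and 2 lower with shPC25, and with shPC28 these were 2 and 3. The shares called over all probe sets were 20.4% with shPC25 and 41.7% with shPC28. Car12, a carbonic anhydrase of the cell surface, averaged 6.73 with shPC25, 6.31 with shPC28 and 8.55 in scram, log2 changes of -1.82 (limma, adjusted p = 0.00107) and -2.24 (adjusted p = 6.72e-05). Slc3a2, the heavy chain of an amino acid transporter that associates with basigin, rose by 0.73 with shPC25 (adjusted p = 0.00102) and 0.76 with shPC28 (adjusted p = 0.000172). Nptn, neuroplastin, a basigin relative, fell more with shPC25 (-0.99, adjusted p = 0.000337) than with shPC28 (-0.35, adjusted p = 0.018, a call lost under 4 of 18 alternatives), and shPC28 lay above shPC25 by 0.63 (adjusted p = 0.00154).

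Upstream of the lactate step, shPC25 was accompanied by 0 higher and 3 lower of 13 glycolysis genes (3 higher and 4 lower at an unadjusted p under 0.05), and shPC28 by 5 higher and 5 lower. Over all probe sets 20.4% were called with shPC25 and 41.7% with shPC28. Hk2, the inducible hexokinase, averaged 10.62 with shPC25, 8.54 with shPC28 and 11.27 in scram, log2 changes of -0.65 (limma, adjusted p = 0.0139, and 0.0524 without scram replicate 2) and -2.73 (adjusted p = 1.58e-06). Pgam1, phosphoglycerate mutase, changed by -0.70 with shPC25 (adjusted p = 0.0015) and -1.17 with shPC28 (adjusted p = 1.65e-05). Pfkm, a phosphofructokinase subunit, was higher by 0.78 with shPC28 (adjusted p = 0.000338) and by 0.32 with shPC25, where it did not pass (adjusted p = 0.0664).

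At the competing fate of pyruvate, entry into mitochondria, the shPC25 arrays had 0 of 13 genes higher and 2 lower, Pcx included (2 higher and 3 lower at an unadjusted p under 0.05), and the shPC28 arrays had 5 higher and 4 lower. Here too the shares called over all probe sets were 20.4% with shPC25 and 41.7% with shPC28. Dlat, the E2 subunit of pyruvate dehydrogenase, changed by -0.39 with shPC25 (limma, adjusted p = 0.0141) and -0.79 with shPC28 (adjusted p = 9.79e-05). With shPC25 it did not pass under 4 of 18 alternatives, at adjusted p = 0.0515 to 0.0573. Pdp1, the phosphatase that activates pyruvate dehydrogenase, was at 9.70 with shPC25, 7.47 with shPC28 and 9.61 in scram, so it fell with shPC28 only (-2.13, adjusted p = 1.11e-05) and differed between the hairpins by -2.23 (adjusted p = 3.83e-05).

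The NADH shuttles, which move reducing power made in glycolysis into mitochondria, had 3 of 10 genes higher and 1 lower with each hairpin. Over all probe sets 9.19% were higher and 11.3% lower with shPC25, and 21.2% and 20.5% with shPC28. Slc25a13, the aspartate and glutamate carrier citrin, changed by -1.38 with shPC25 (limma, adjusted p = 0.000196) and -2.08 with shPC28 (adjusted p = 2.10e-06). Got1, the cytosolic aspartate aminotransferase, rose by 0.64 with shPC25 (adjusted p = 0.00122) and stood at 0.10 with shPC28 (adjusted p = 0.37), a difference between hairpins of -0.54 (adjusted p = 0.00169). Gpd2, the mitochondrial glycerol phosphate dehydrogenase, rose by 0.80 with shPC28 (adjusted p = 0.000886) and by 0.44 with shPC25 (adjusted p = 0.041), a call lost under 11 of 18 alternatives. Of 5 lactate and proton sensors only Ndrg3, a protein that binds lactate, was above background on all arrays, and it rose by 0.69 with shPC28 (adjusted p = 0.00146) against 0.38 with shPC25 (adjusted p = 0.0557).

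Regulators of Ldha and Slc16a genes showed 3 of 10 higher and 2 lower with shPC25, and 2 higher and 6 lower with shPC28. Over all probe sets 9.19% were higher and 11.3% lower with shPC25, and 21.2% and 20.5% with shPC28. Egln3, a prolyl hydroxylase that marks hypoxia-inducible factors for degradation and is itself induced by them, averaged 11.27 with shPC25, 10.03 with shPC28 and 13.55 in scram, log2 changes of -2.29 (limma, adjusted p = 7.65e-05) and -3.53 (adjusted p = 7.03e-07). Egln1, a second such hydroxylase, changed by -0.59 with shPC25 (adjusted p = 0.00944) and -1.48 with shPC28 (adjusted p = 1.57e-05). Arnt, the constant partner of these factors, rose by 0.57 with shPC25 (adjusted p = 0.00207) and 0.80 with shPC28 (adjusted p = 7.05e-05). Hif1a and Myc were chosen after their values were seen: Hif1a changed by -0.04 with shPC25 (adjusted p = 0.787) and fell by 0.59 with shPC28 (adjusted p = 0.000625), and Myc was at 0.34 with shPC25 (adjusted p = 0.0394, lost under 10 of 18 alternatives) and fell by 0.47 with shPC28 (adjusted p = 0.00427). Of 9 reference genes of quantitative PCR, the shPC25 arrays had 0 higher and 1 lower (1 and 2 at an unadjusted p under 0.05), and the shPC28 arrays had 1 higher and 3 lower. The same shares over all probe sets apply to these counts.

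**Figure D3:**
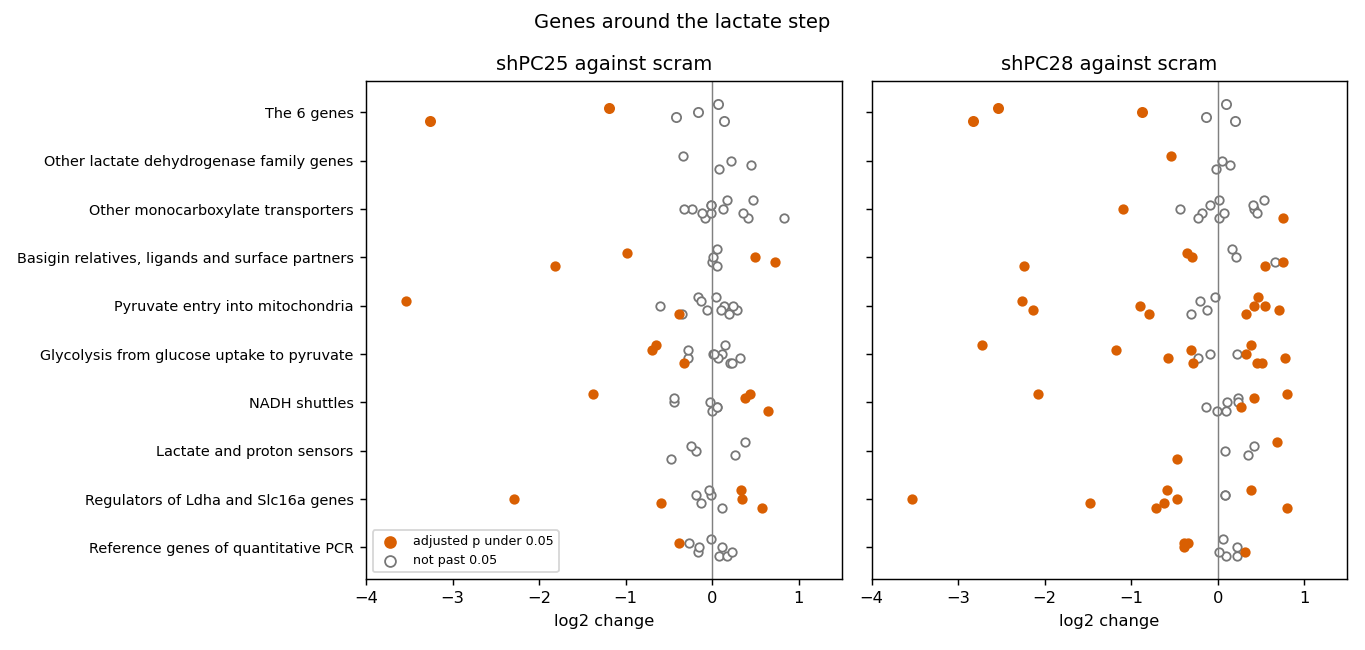
Log2 change (horizontal axis) of the 6 genes and of each measured gene in the pathway lists, with shPC25 against scram on the left and shPC28 against scram on the right, orange where the adjusted p was under 0.05. The lists spread to both sides of 0 and more so with shPC28, and Egln3 at -3.53 lies farthest left among the listed genes there.

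Likeness of pattern was measured as Pearson's r over the 9 arrays, given as a description since the arrays share 3 groups. Among 9713 named probe sets above the median level, those most like Slc16a3 were Chst14, a sulfotransferase gene, Ing1, a chromatin reader gene, and Fzr1, which encodes an activator of the anaphase-promoting complex, each at r = 0.998. Most like Slc16a1 were Dhx9, an RNA helicase gene (r = 0.993), Golph3, a Golgi protein gene (r = 0.992), and Sp3, a transcription factor gene (r = 0.991). For Emb, which is at background on 6 of the 9 arrays, the order of likeness is not read, since values at background have none. The probe sets at the top there were Aurkb, the mitotic kinase Aurora B (r = 0.985), Fam171b (r = 0.983) and Padi1, a peptidylarginine deiminase gene (r = 0.982). Such likeness was common: r was over 0.95 for 1160 probe sets with Slc16a3, 552 with Slc16a1 and 68 with Emb.

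**Figure D4:**
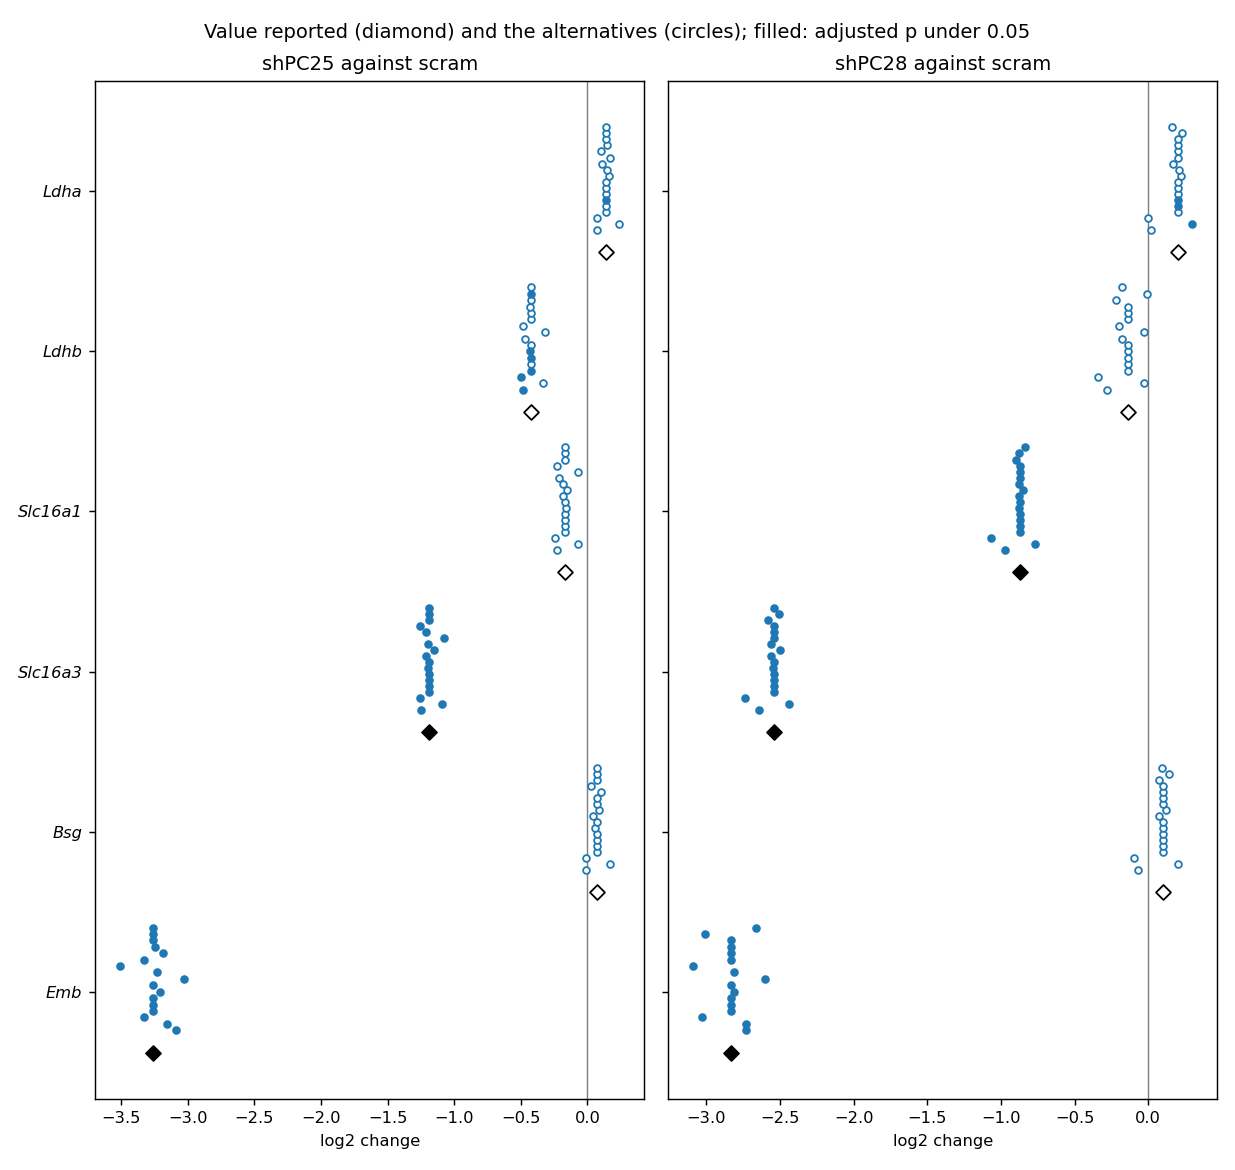
Log2 change (horizontal axis) of each of the 6 genes against scram as reported (diamond) and under each alternative setting (circles), filled where the adjusted p was under 0.05. Slc16a3 and Emb are filled throughout with both hairpins and Slc16a1 throughout with shPC28, while Ldha and Bsg lie near 0 and Bsg crosses it.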

How the data were processed

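Expression was measured on 9 Clariom S mouse arrays. The deposited values were taken as log2, normalized by the authors in the Transcriptome Analysis Console with 1 value per probe set; the log base, the algorithm and the genome build were not given in the sources used here. Values lay between 1.51 and 18.64, with 0 missing. Groups came from the sample titles. The platform annotation gave 1 symbol to 19572 of 22206 probe sets.

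The 9 arrays entered 1 linear model with a mean for each group, in R 4.3.3 with limma 3.58.1 (lmFit, eBayes), two-sided, with Benjamini-Hochberg adjustment over 22206 probe sets and no filter; an adjusted p under 0.05 was called. The fit was tested on simulated data. The number of arrays limits precision. The 6 genes and 15 gene lists, 9 on pathway and reference genes and 6 on cell type markers (epithelial, mesenchymal, macrophage, lymphocyte, fibroblast, endothelial), were chosen with earlier results of these data known. Named genes were the 6 and Pcx, up to 3 per list with the smallest p, and the 3 probe sets most like each called gene. Alternatives covered dim-probe filters, normalization, centring, variance models, array weights, samples in the fit, a replicate block and each array left out.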

Additional observations from a re-analysis of the deposited data

Results flagged for a closer look

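The response of 2 genes differed between the hairpins, by the test of shPC28 against shPC25 itself. For Slc16a3 the log2 change of shPC28 against shPC25 was -1.36 ± 0.11 (SE; limma, adjusted p = 6.20e-05), having fallen with both against scram. Slc16a1 was lower with shPC28 than with shPC25 by -0.70 ± 0.11 (adjusted p = 0.00152), having fallen with shPC28 only. Pcx ran the other way, higher with shPC28 than with shPC25 by 1.28 (adjusted p = 0.000307). Of all probe sets, 26.2% passed the same test between the hairpins, made up of 14.5% lower and 11.8% higher with shPC28.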

How the results depend on the processing

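The calls of Slc16a3 in all 3 comparisons and of Slc16a1 with shPC28 and between the hairpins held under 18 of 18 alternatives, and those of Emb under 17 of 17, the filter on the lowest 50% of probe sets having removed Emb. Slc16a3 ranged from -1.26 to -1.08 with shPC25 and -2.74 to -2.44 with shPC28. Ldha passed the test at 0.14 with shPC25 and 0.20 with shPC28 under an intensity trend with robust variance (adjusted p = 0.0315 and 0.00156), and with shPC28 at 0.30 with median centring and 0.20 without the lowest 50% (adjusted p = 0.0336 and 0.0377). Ldhb passed with shPC25 at -0.48 with quantile normalization, -0.50 with olfactory centring, -0.42 without the lowest 25% and with the compared groups alone, and -0.43 with array weights (adjusted p = 0.0363 to 0.0459), always at background. Leaving out single arrays, Ldhb ranged from -0.48 to -0.32 with shPC25 and 0.20 to 0.42 between the hairpins, passing without shPC28 replicate 2 in both (adjusted p = 0.0337 and 0.0467).

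Signs turned as follows. Bsg went to -0.01 with shPC25 under quantile normalization and olfactory centring, to -0.07 and -0.10 with shPC28, and to -0.07 and -0.09 between the hairpins. Ldha went to -0.00 with shPC28 under olfactory centring, and between the hairpins to -0.04 under quantile normalization and -0.07 under olfactory centring. With shPC28, olfactory centring gave Got1 -0.10, Ldhc -0.06 and Ldhd -0.15, quantile normalization gave Ldhd -0.04, and Ldhd ranged from -0.00 (without shPC28 replicate 1) to 0.11 as single arrays were left out. With shPC25, Hif1a was 0.06 under median centring, and Cdh1 -0.01 under olfactory centring and -0.04 without scram replicate 2. Centring on the olfactory probe sets moved the median of all probe sets with shPC28 to -0.10, against 0.10 as deposited. Of called probe sets with shPC28, 50.8% were higher as deposited, 60.7% under median centring and 31.5% under olfactory centring; with shPC25 these were 44.9%, 61.5% and 32%. The cause was not tested.

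Leaving out single arrays, probe sets called numbered 3021 to 4512 with shPC25, the lowest without scram replicate 3, against 4541 with all arrays. The pair differences ranged over 0.35 to 0.52 for Ldha and Ldhb, 1.26 to 1.46 for Slc16a1 and Slc16a3, and 2.88 to 3.38 for Bsg and Emb, of which the first and the last hold a probe set at background and are not read as sizes, and without a scram array the smallest p is 0.0714. Deviations of same-numbered arrays of different groups correlated at -0.18 to -0.14 (9 pairs), and those of different-numbered arrays at 0.05 to 0.13 (18 pairs). Arrays that shared a replicate number were thus not more alike than the others. The correlations did split by number, and the cause of this split was not tested. With the replicate block 3073 probe sets were called with shPC25, 8074 with shPC28 and 4552 between the hairpins, and no call of the 6 genes changed.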
